A study of Rattus norvegicus with 9 samples.

Results

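The 10 genes described here encode BMP and TGF-beta signals and their inhibitors: the ligands Bmp2, Bmp4, Bmp7, Inhba, Tgfb1 and Tgfb3, the secreted antagonists Nog and Grem1, and the inhibitory SMADs Smad6 and Smad7. They were taken by gene symbol from the 23026 genes of the deposited tables, and all 10 were found and passed the filter on low counts. Bone RNA came from female Sprague–Dawley rats, bought at 8 weeks old, in 3 groups of 3 libraries. Sham rats kept their ovaries and lost a matching amount of fat beside the ovary. OVX rats were ovariectomized, a model of bone loss after estrogen withdrawal in which the whole animal lacks its ovaries. OVX-AS-IV-High rats, called treated here, were ovariectomized and, from 6 weeks after surgery, received astragaloside IV (AS-IV), a saponin of the herb Astragalus membranaceus, at 80 mg/kg by gavage once a day for 8 weeks. Sham and OVX rats received the vehicle, sodium carboxymethyl cellulose (CMC-Na). For Sham replicates 1, 2 and 3 the sample labels give 1%, 2% and 3% CMC-Na, whereas the study's methods give a single strength, and the 3 libraries were kept as 1 group.

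BMPs, activins and TGF-betas are secreted dimers that bind paired serine/threonine kinase receptors, and the receptors phosphorylate SMAD proteins that carry the signal into the nucleus. BMPs drive mesenchymal cells toward bone and cartilage, while TGF-beta stored in bone matrix is released during resorption and couples resorption to formation. Noggin and gremlin-1 bind BMPs outside the cell and keep them from their receptors, and the inhibitory SMADs limit the signal inside it.

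Nog was 2.37-fold higher in treated than in Sham rats, groups that differ by both ovariectomy and AS-IV. It was the only one of the 10 with an absolute log2FC over 1 and an unadjusted p under 0.05 in any comparison. Of all genes tested, 3.15% passed these thresholds in treated vs. Sham. In treated vs. OVX the Nog log2FC was 0.30 (unadjusted p = 0.529, edgeR's quasi-likelihood test). At a log2FC of 0.58, the lower of the fold thresholds in use for these data, Grem1 also passed in OVX vs. Sham and Inhba in treated vs. OVX. Of the 16874 genes tested, 1174 and 369 passed at 0.58 in these comparisons. Grem1, the other antagonist, was lower in OVX than in Sham by a log2FC of -0.87, and Smad6 was higher in both ovariectomized groups than in Sham by about 0.5 on the log2 scale (0.48 in OVX and 0.50 in treated rats). Inhba was the member with the lowest p in treated vs. OVX, with a log2FC of 0.63. By edgeR's quasi-likelihood test, those of these differences with an unadjusted p under 0.05 had an adjusted p between 0.180 and 0.737.

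The stretches of promoter shown here belong to the antagonists Nog and Grem1 and to Inhba, the members with the lowest p in the 3 comparisons beside Smad6. RefSeq sequences of assembly GRCr8 were matched for 7 of the 10 members (Bmp4, Nog, Grem1, Inhba, Smad7, Tgfb1 and Tgfb3). Each line runs 5′ to 3′ on the gene's own strand, which is the minus strand in all 3, and capitals mark the motif found in it, GGCGCC in Nog and Grem1 and TATAAA in Inhba. The places are chr10:74627502-74627621 for Nog, chr3:120978320-120978439 for Grem1 and chr17:53804509-53804628 for Inhba.
Nog: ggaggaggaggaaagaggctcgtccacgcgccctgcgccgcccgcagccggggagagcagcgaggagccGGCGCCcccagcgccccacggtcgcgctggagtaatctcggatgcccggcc
Grem1: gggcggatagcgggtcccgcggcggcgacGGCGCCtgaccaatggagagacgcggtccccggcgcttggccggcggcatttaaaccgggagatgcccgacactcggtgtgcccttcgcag
Inhba: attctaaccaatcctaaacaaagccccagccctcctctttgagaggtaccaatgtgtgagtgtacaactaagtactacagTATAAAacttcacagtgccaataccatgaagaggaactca

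GGCGCC, a palindrome that is the core of known BMP-responsive elements, occurred within 250 bases before the start in 3 of the 7 members (Nog, Grem1 and Smad7) and in 8.69% of all 33469 RefSeq windows of that length. Its first base lay 51 bases before the start in Nog and 91 in Grem1. CAGAC, the SMAD box, searched on both strands, occurred in 2 of the 7 (Bmp4 and Nog) and in 42.9% of all windows, and TATAAA in 1 of the 7 (Inhba) and in 12.9%. GC content of the whole window was 78% in Smad7, 74% in Nog and 72% in Grem1, against a median of 51.2% over all windows. It was 66.4% in Bmp4, 60% in Tgfb1, 48.8% in Tgfb3 and 43.6% in Inhba. The 3 members with GGCGCC, made of G and C alone, thus had the highest GC content of the 7. Its share among windows of like GC content was not computed. These matches describe letters and do not show that a factor binds there.

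Library totals lay between 34874880 and 37298250 counts, and no 2 libraries held identical values. Osteoblast markers such as Bglap and Col1a1 were present in every library, with summed levels of 5677 to 15180 CPM in Sham, 11668 to 18899 in OVX and 6049 to 16136 in treated rats. In OVX vs. Sham, 8 of the 10 osteoblast markers had a log2FC above 0 and 2 below. Only Bglap passed the thresholds (log2FC 1.21, unadjusted p = 0.0123, adjusted p = 0.199, edgeR's quasi-likelihood test), with no overlap of the groups. Libraries also held other tissue: the summed level of 11 skeletal muscle markers was 1767 to 9816 CPM in Sham, 1779 to 3630 in OVX and 613 to 5129 in treated rats, with replicate 1 highest in each group. All 8 adipocyte markers had a log2FC above 0 in OVX vs. Sham, 4 of them past the thresholds, and their sum was 382 to 454 CPM in Sham and 589 to 771 in OVX. All 6 B lineage markers were higher in OVX vs. Sham at p under 0.05, without overlap of the groups, with sums of 637 to 826 CPM in Sham, 1076 to 1149 in OVX and 763 to 1095 in treated rats. Of all genes tested in OVX vs. Sham, 3.11% passed the thresholds, 16.4% had an unadjusted p under 0.05 and 23.3% had groups without overlap. The part of these marker shifts in the member differences was not tested. In bulk bone, fewer cells of a type and less RNA per cell cannot be told apart.

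Levels were first compared between the genes on the FPKM scale, which divides counts by gene length. Tgfb1, the TGF-beta form stored in bone matrix, had a mean of 90.7 FPKM over the 9 libraries, 16.1-fold above the next gene and above it in all 9. Another 7 genes followed within a narrow band from 5.62 FPKM (Smad6) to 4.47 FPKM (Bmp2), in the order Smad6, Bmp4, Inhba, Tgfb3, Grem1, Smad7 and Bmp2. Neighbours in this band differed by 1.01-fold to 1.07-fold in mean FPKM, and the higher of each pair was above the other in only 3 to 6 of the 9 libraries, so their order was not resolved. Below the band, Bmp2 exceeded Nog (1.45 FPKM) 3.09-fold and in 9 of 9 libraries. Nog exceeded Bmp7 (0.624 FPKM) 2.32-fold and in 8 of 9.

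**Figure D1:**
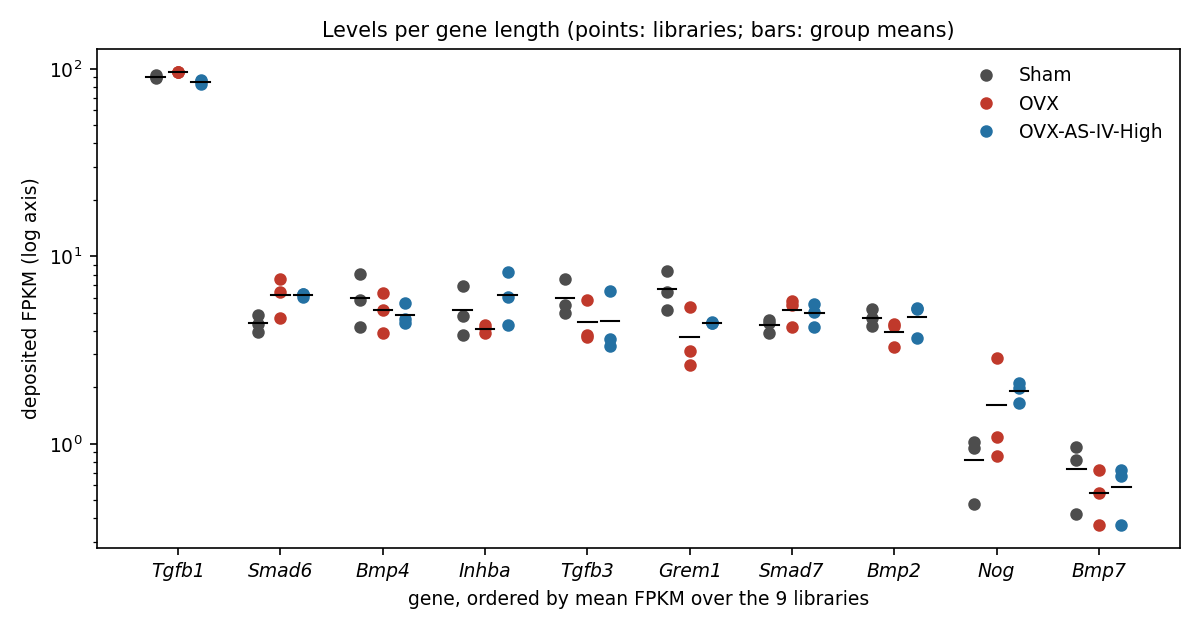
Deposited FPKM of the 10 genes (log axis) in each library, with the 3 libraries of Sham, OVX and OVX-AS-IV-High as coloured points and group means as bars. Tgfb1 stands 16.1-fold above the next gene, 7 genes lie between 4.47 and 5.62 FPKM in the mean, and Nog and Bmp7 are lowest.

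The spread over the 9 libraries differed between genes as well. The highest Tgfb1 library was 1.16-fold above the lowest in FPKM, the smallest ratio of the 10. This ratio was 1.47 for Smad7, 1.61 for Bmp2 and 3.16 for Grem1. Nog had the widest ratio, 6.03, with 27 to 172 counts per library.

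CPM, the counts scaled to TMM-adjusted library size, were used to compare groups. Of the BMP ligands, Bmp2, a strong inducer of osteoblasts, had 11.1, 12.7 and 14.0 CPM in Sham rats, 11.5, 10.9 and 8.76 in OVX rats and 14.3, 9.80 and 14.1 in treated rats. The groups overlapped in every comparison. The log2FC was -0.28 in OVX vs. Sham (95% interval -0.70 to 0.14) and 0.29 in treated vs. OVX (-0.13 to 0.71).

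Bmp4, a close relative of Bmp2, had 22.1, 12.1 and 16.5 CPM in Sham rats, 17.5, 10.6 and 14.5 in OVX rats and 12.6, 13.1 and 15.7 in treated rats. Sham replicate 1 was the highest library and OVX replicate 2 the lowest, and the groups overlapped. Bmp7, known for its part in kidney and skeletal development, was the scarcest ligand, with 3.46, 3.05 and 1.55 CPM in Sham rats, 1.34, 2.56 and 1.98 in OVX rats and 1.38, 2.46 and 2.64 in treated rats. For Bmp4 the log2FC ran from -0.29 to -0.04 over the 3 comparisons and for Bmp7 from -0.46 to 0.14, and the 95% interval included 0 each time. At 49 to 126 counts per library, those of Bmp7 ran from -1.35 to 0.44 in OVX vs. Sham, from -0.75 to 1.04 in treated vs. OVX and from -1.21 to 0.58 in treated vs. Sham.

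**Figure D2:**
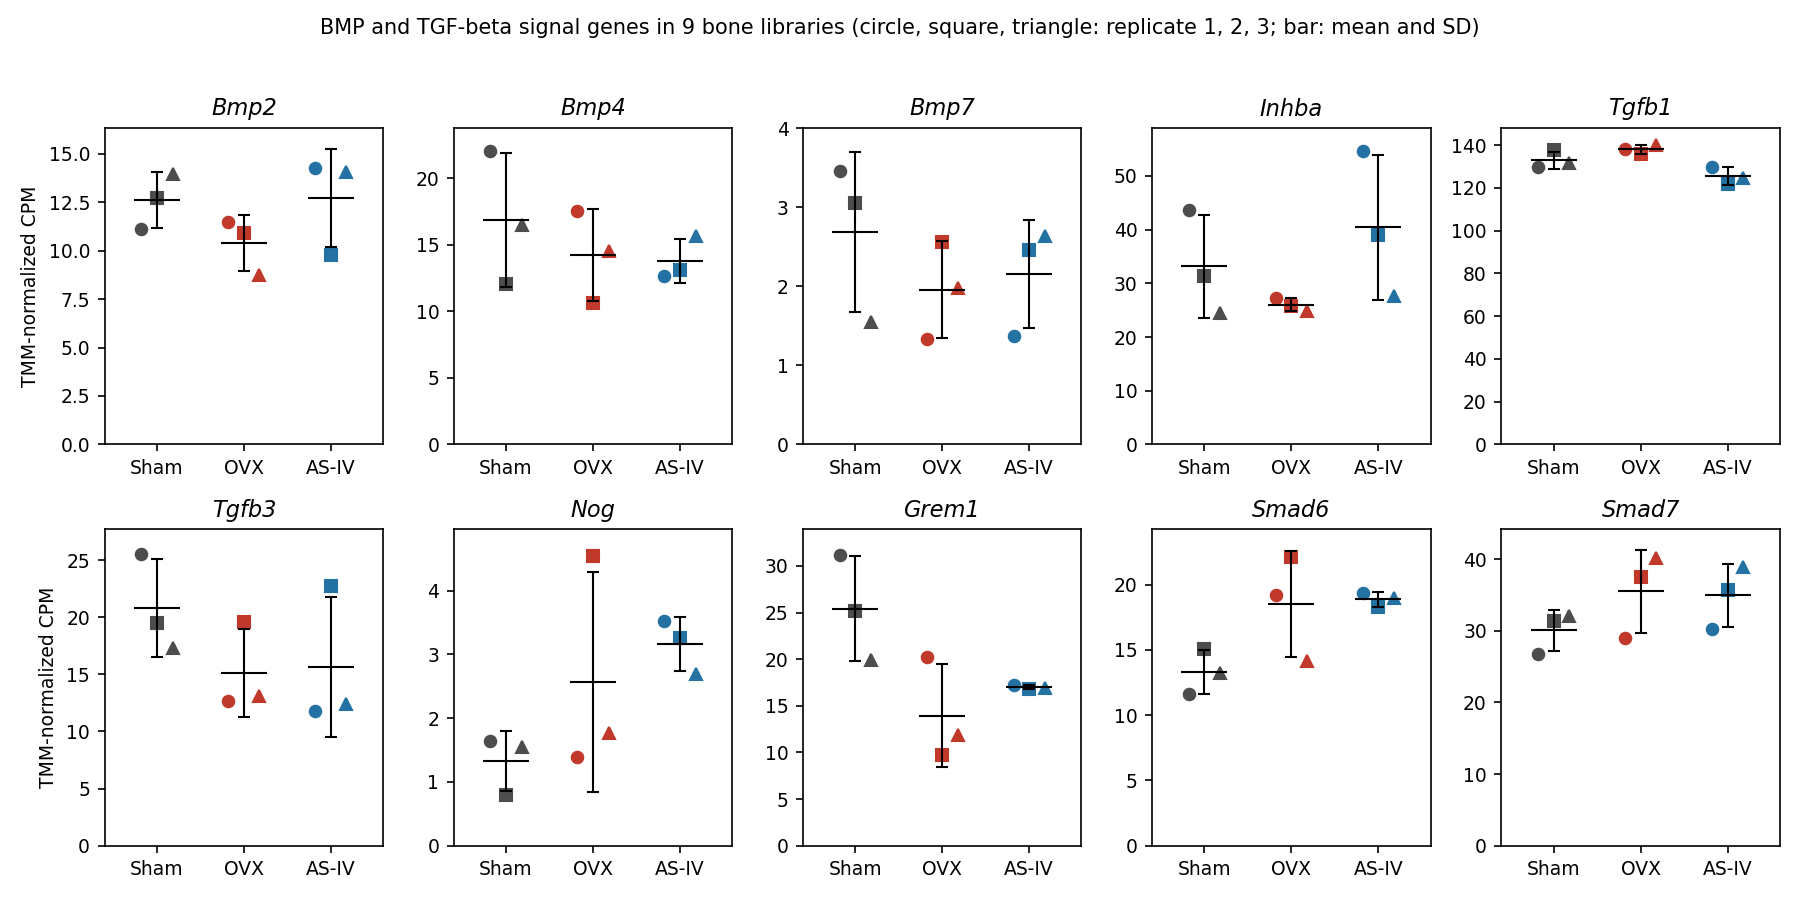
TMM-normalized CPM of the 10 genes in each library (circle, square and triangle: replicates 1, 2 and 3; AS-IV stands for OVX-AS-IV-High, the treated group; bars: mean and SD, n = 3). Each panel has its own axis from 0. The 3 treated libraries lie above the 3 Sham libraries for Nog and Smad6 and below them for Grem1.

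The antagonists had the largest log2FC of the 10 genes in both comparisons with Sham. Nog, which encodes noggin, had 1.65, 0.792 and 1.55 CPM in Sham rats, 1.39, 4.54 and 1.76 in OVX rats and 3.52, 3.25 and 2.69 in treated rats. Every treated library was above every Sham library, whereas OVX replicate 2 alone was the highest of all 9 and the other two OVX libraries lay near Sham. Means were 1.33 ± 0.469 CPM in Sham, 2.56 ± 1.72 in OVX and 3.16 ± 0.423 in treated rats (SD, n = 3 each).

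Nog rose in treated vs. Sham with a log2FC of 1.24 (SE 0.469, 95% interval 0.19 to 2.3, unadjusted p = 0.0258, adjusted p = 0.224 over all genes, edgeR's quasi-likelihood test). The call rested on single libraries, since p was 0.0867 without Sham replicate 2 (log2FC 0.99), 0.0599 without treated replicate 1 (1.16) and 0.0543 without replicate 2 of that group (1.22). On log2(FPKM + 1), which understates changes of low genes, its log2FC was 0.69, and over all 19 alternatives it lay between 0.69 and 1.43, with adjusted p from 0.0989 to 0.514. OVX vs. Sham gave 0.94 (SE 0.468, unadjusted p = 0.0735), which was 0.25 without OVX replicate 2. Treated vs. OVX gave 0.30 (SE 0.457, unadjusted p = 0.529) and 1.00 without that library (unadjusted p = 0.0282). Marker sets that differed in the same comparison with Sham were adipocyte genes (5 of 8 higher at p under 0.05), endothelial genes (4 of 6 lower), neutrophil genes (3 of 7 higher) and B lineage genes (2 of 6 higher), against 17.6% of all genes, and their part in the Nog difference was not tested.

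Grem1, which encodes gremlin-1, had 31.2, 25.1 and 19.9 CPM in Sham rats, 20.2, 9.76 and 11.9 in OVX rats and 17.3, 16.8 and 16.9 in treated rats. OVX and Sham overlapped only by OVX replicate 1, which was just above Sham replicate 3. All 3 treated libraries were below all 3 Sham libraries and close to each other.

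Grem1 was lower in OVX than in Sham with a log2FC of -0.87 (SE 0.260, 95% interval -1.45 to -0.28, unadjusted p = 0.00834, adjusted p = 0.180, edgeR's quasi-likelihood test). The difference fell short of the fold threshold, and it passed that threshold without Sham replicate 3 (-1.01) or without OVX replicate 1 (-1.23). The unadjusted p was under 0.05 in all 19 alternatives, and DESeq2 gave an adjusted p of 0.0331, the lowest among them, against a highest of 0.441. Treated vs. Sham gave -0.58 (SE 0.258, unadjusted p = 0.0503, adjusted p = 0.283), and treated vs. OVX gave 0.29 (SE 0.259, unadjusted p = 0.298). All 11 muscle markers had a log2FC below 0 in both comparisons with Sham (median -1.05 and -1.17), with 0 of 11 at p under 0.05 by edgeR and overlapping groups. With the muscle score as a covariate, added after seeing the data, the Grem1 log2FC was -0.70 (unadjusted p = 0.0193) and -0.34 (unadjusted p = 0.240) in these comparisons.

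The share of Nog in the antagonist pair was also compared. Of the summed FPKM of Nog and Grem1, Nog accounted for 11.0%, 6.87% and 15.4% in Sham rats, 13.8%, 52.1% and 25.8% in OVX rats and 32.3%, 31.1% and 27.2% in treated rats. All 3 treated libraries were above all 3 Sham libraries, while the OVX libraries spread across both groups. The sum of Bmp2, Bmp4 and Bmp7 per sum of Nog and Grem1 was 1.41, 1.40 and 1.87 in Sham rats, 1.78, 1.61 and 2.15 in OVX rats and 1.53, 1.41 and 1.91 in treated rats. This ligand to antagonist ratio overlapped between all groups, with means of 1.56 ± 0.266 in Sham and 1.85 ± 0.279 in OVX (SD, n = 3). These ratios are descriptions of genes already chosen and were not tested.

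Inhba encodes the subunit of activin A, a ligand that acts on the TGF-beta branch of SMAD signalling. It had 43.6, 31.3 and 24.5 CPM in Sham rats, 27.3, 25.8 and 24.9 in OVX rats and 54.6, 39.0 and 27.6 in treated rats. Every treated library was above every OVX library, although its replicate 3 exceeded the highest OVX library by very little. The log2FC in treated vs. OVX was 0.63 (SE 0.256, 95% interval 0.06 to 1.21, unadjusted p = 0.0342, adjusted p = 0.737, edgeR's quasi-likelihood test).

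With 1 library left out, this log2FC of Inhba lay between 0.36 and 0.85, and p was 0.05 or more without OVX replicate 1, 2 or 3 or without treated replicate 1 or 2 (0.0580 to 0.161). It was also 0.0731 on log2(FPKM + 1) and 0.0710 on log2(FPKM + 0.1). Within each group, Inhba was highest in replicate 1 and lowest in replicate 3, the same order as the summed muscle markers. With the muscle score as a covariate the log2FC was 0.67 in treated vs. OVX (unadjusted p = 0.000134, adjusted p = 0.135) and 0.66 in treated vs. Sham (adjusted p = 0.0463), where it was 0.28 without the covariate (unadjusted p = 0.292). OVX vs. Sham gave -0.35 (unadjusted p = 0.204).

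Tgfb1 had 129.7, 137.6 and 131.6 CPM in Sham rats, 138.2, 136.1 and 140.0 in OVX rats and 130.0, 121.7 and 124.6 in treated rats. All treated libraries were below all OVX libraries, by a small margin. The log2FC was -0.14 in treated vs. OVX (SE 0.0748, 95% interval -0.31 to 0.03, unadjusted p = 0.0952, adjusted p = 0.848, edgeR's quasi-likelihood test). It was -0.17 with library totals in place of TMM (unadjusted p = 0.0387), on log2(FPKM + 1) (unadjusted p = 0.0201) and on log2(FPKM + 0.1) (unadjusted p = 0.0223). These 3 were the only ones of the 19 alternatives with an unadjusted p under 0.05. Over all 19 the unadjusted p reached 0.215, and the adjusted p was 0.509 or more. The interval of the main fit was the narrowest of the 10 genes, and it ended well short of the fold threshold.

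Tgfb3, a TGF-beta form known from palate and cartilage development, had 25.6, 19.5 and 17.3 CPM in Sham rats, 12.7, 19.6 and 13.1 in OVX rats and 11.8, 22.7 and 12.4 in treated rats. In both ovariectomized groups replicate 2 stood apart at the level of Sham, and the other two libraries were below every Sham library. Log2FC was -0.46 in OVX vs. Sham (unadjusted p = 0.138), 0.05 in treated vs. OVX and -0.41 in treated vs. Sham (unadjusted p = 0.180). Without treated replicate 2 the last value was -0.78 (unadjusted p = 0.0117).

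Smad6, the inhibitory SMAD that acts mainly on BMP signals and is itself induced by them, had 11.6, 15.0 and 13.2 CPM in Sham rats, 19.2, 22.1 and 14.2 in OVX rats and 19.4, 18.3 and 19.0 in treated rats. All treated libraries were above all Sham libraries, and OVX overlapped with Sham only by its replicate 3. The log2FC was 0.48 in OVX vs. Sham (SE 0.170, unadjusted p = 0.0202, adjusted p = 0.224) and 0.50 in treated vs. Sham (SE 0.171, unadjusted p = 0.0154, adjusted p = 0.188, edgeR's quasi-likelihood test). Both lay below the fold threshold of 1, and both comparisons used the same Sham libraries. In OVX vs. Sham p was 0.0723 without Sham replicate 1, 0.0541 without OVX replicate 1 and 0.0902 without OVX replicate 2. For treated vs. Sham it was 0.0516 without Sham replicate 1. Treated vs. OVX gave 0.03 (95% interval -0.35 to 0.41).

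Smad7, which inhibits TGF-beta receptors as well, had 26.8, 31.3 and 32.1 CPM in Sham rats, 29.0, 37.5 and 40.1 in OVX rats and 30.2, 35.6 and 38.9 in treated rats. OVX replicate 3 was the highest library and Sham replicate 1 the lowest, and the groups overlapped. Log2FC was 0.24 in OVX vs. Sham (unadjusted p = 0.132), -0.03 in treated vs. OVX (unadjusted p = 0.866) and 0.22 in treated vs. Sham (unadjusted p = 0.172).

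**Figure D3:**
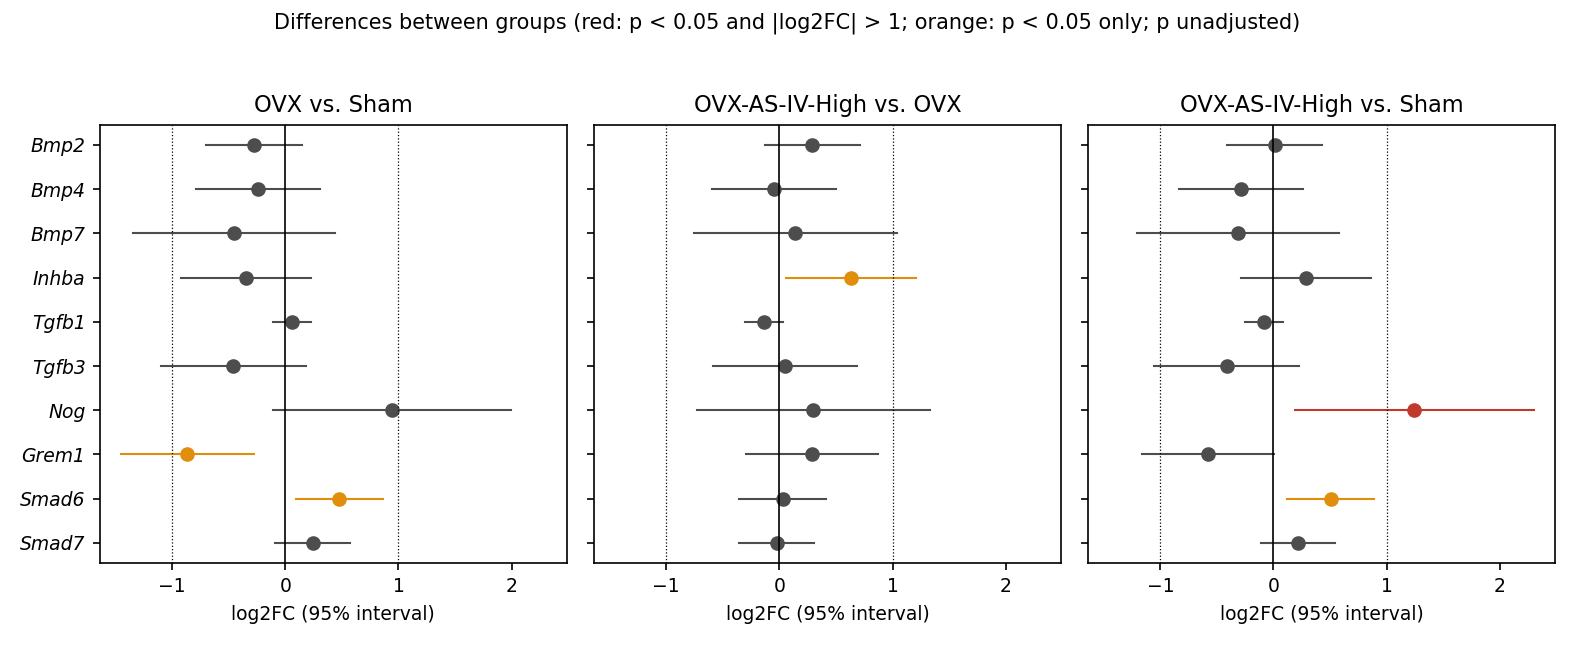
Log2FC of the 10 genes in the 3 comparisons with 95% intervals from edgeR's quasi-likelihood fit. Red marks genes past both thresholds (Nog in treated vs. Sham), orange an unadjusted p under 0.05 alone, and dotted lines the fold threshold.

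The study's methods and results state different fold thresholds for a DEG. DEGs were called here at |log2FC| over 1, the stricter one, with an unadjusted p under 0.05, and counts at the other, 0.58, are given beside them. Of the 10 genes, 0 passed them in OVX vs. Sham and 0 in treated vs. OVX by edgeR, and 0 by DESeq2, while 3.11% and 0.83% of the 16874 genes tested did. In treated vs. Sham 1 of the 10 passed, against 3.15% of all genes. At 0.58 the counts were 1 (Grem1), 1 (Inhba) and 1 (Nog) in the 3 comparisons, while 1174, 369 and 1167 of all genes passed. Without Sham replicate 3 the count in OVX vs. Sham was 1 (Grem1), and without OVX replicate 1 it was 2 (Grem1 and Nog). Without Sham replicate 2 or treated replicate 1 or 2 the count in treated vs. Sham was 0.

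At an unadjusted p under 0.05 alone, the counts were 2 of 10 in OVX vs. Sham (Smad6 higher, Grem1 lower), 1 of 10 in treated vs. OVX (Inhba higher) and 2 of 10 in treated vs. Sham (Nog and Smad6 higher). Among all genes tested the shares were 16.4%, 6.45% and 17.6%. Groups did not overlap for 0, 2 and 3 of the 10 genes in these comparisons, against 23.3%, 12.7% and 19.9% of all genes. At p under 0.05 the count was 1 in OVX vs. Sham without Sham replicate 1 or OVX replicate 2, 0 in treated vs. OVX without OVX replicate 3 or treated replicate 1, and 1 in treated vs. Sham without Sham replicate 1 or 2 or treated replicate 1. In treated vs. OVX the 1 gene was not Inhba in 3 of these fits. It was Grem1 without OVX replicate 1 (log2FC 0.65, unadjusted p = 0.00960, edgeR's quasi-likelihood test). It was Nog without OVX replicate 2 (1.00, unadjusted p = 0.0282) and Bmp2 without treated replicate 2 (0.45, unadjusted p = 0.0333). After adjustment over all genes, edgeR gave 0 of 10 an adjusted p under 0.05 in each comparison, and 0 of all genes, whereas DESeq2 gave 1 of the 10 in OVX vs. Sham (Grem1) and 834 of all genes. The median log2FC of the 10 genes was -0.26 in OVX vs. Sham, 0.09 in treated vs. OVX and -0.04 in treated vs. Sham, against -0.01, -0.02 and -0.01 over all genes.

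**Figure D4:**
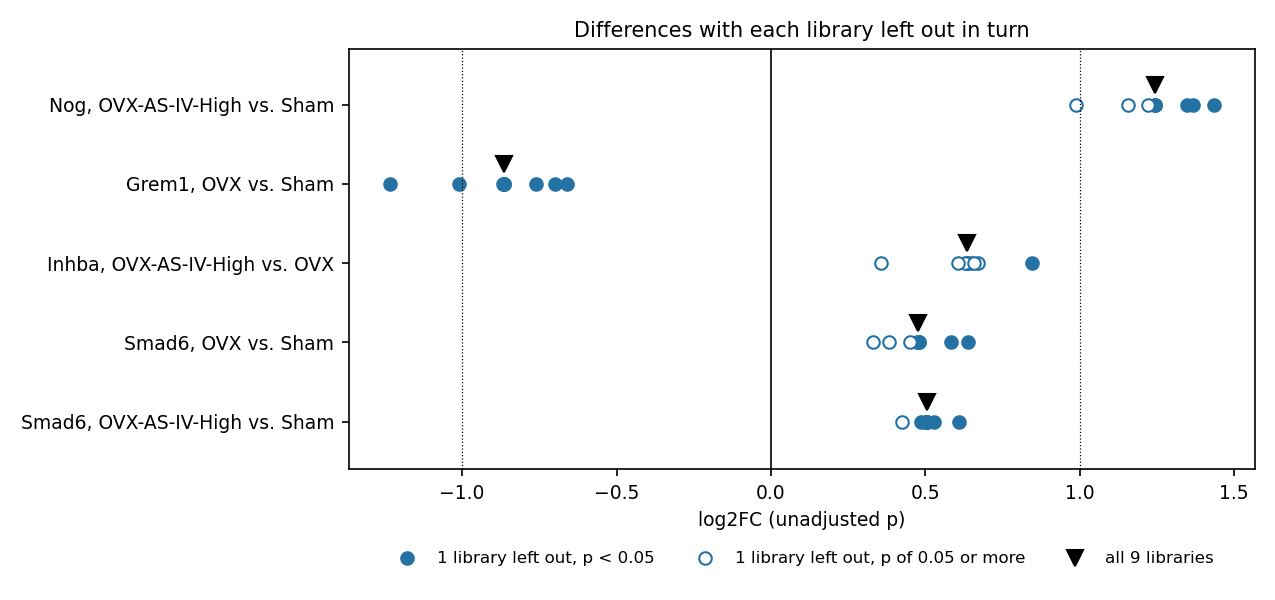
Log2FC of the member differences with an unadjusted p under 0.05, with all 9 libraries (triangles) and after removal of each single library (circles, filled where the unadjusted p stayed under 0.05). Grem1 in OVX vs. Sham kept a p under 0.05 each time, between -1.23 and -0.66, whereas each of the other differences lost it without at least 1 library.

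Around these 10 genes, 7 lists of the same pathway held 100 further genes, of which 98 were in the tables and 87 were tested. The DEG thresholds were passed by 1 of the 87 in OVX vs. Sham (Tll1, lower), by 0 in treated vs. OVX with edgeR and with DESeq2, and by 3 in treated vs. Sham (Inhbb and Acvr1c higher, Ltbp4 lower). An unadjusted p under 0.05 was given to 16 (18.4%), 4 (4.60%) and 16 (18.4%) of the 87, near the shares of all genes given above. By DESeq2, 4, 0 and 6 of the 87 had an adjusted p under 0.05, and by edgeR 0 in each comparison. The median log2FC over the 87 was -0.06, 0.00019 and -0.05. Sham replicate 3 had the largest effect on these counts: without it 8 of the 87 passed the thresholds in OVX vs. Sham and 7 in treated vs. Sham. The count in OVX vs. Sham was also 4 without OVX replicate 1, 3 without treated replicate 1 and 2 without Sham replicate 1 or 2, OVX replicate 2 or treated replicate 3. The count in OVX vs. Sham was 0 with the muscle score as a covariate and on log2(FPKM + 1). That in treated vs. Sham was 1 without Sham replicate 1 and 5 without treated replicate 1, and that in treated vs. OVX reached 2 without treated replicate 3 and 1 without OVX replicate 3.

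Among the remaining ligands, 8 of the 13 BMP and GDF genes in the tables were tested and 0 passed the thresholds in the 3 comparisons by edgeR. At an unadjusted p under 0.05, Gdf15, a stress-induced member named here after its values were seen, was lower in OVX than in Sham (log2FC -0.80) and higher in treated rats than in OVX (0.64), with the OVX libraries shared by both comparisons. Bmp8a and Bmp6 had the highest FPKM of the list, 5.54 and 5.40, and their groups overlapped in all 3 comparisons. Of 6 tested TGF-beta and activin ligands, Inhbb alone passed the thresholds, in treated vs. Sham, where 3.15% of all genes did. It encodes the subunit of activin B and had 1.51, 1.20 and 2.70 CPM in Sham rats, 2.13, 3.90 and 3.69 in OVX rats and 2.18, 5.69 and 5.52 in treated rats.

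Inhbb was highest in replicates 2 and 3 of the treated group, and treated replicate 1 overlapped with Sham. Its log2FC in treated vs. Sham was 1.30 (SE 0.450, unadjusted p = 0.0170, adjusted p = 0.196, edgeR's quasi-likelihood test). The unadjusted p was 0.0535 without Sham replicate 1, 0.0614 without Sham replicate 2, 0.0610 without treated replicate 2 and 0.0562 without replicate 3 of that group, and the log2FC was 0.76 with the muscle score as a covariate (unadjusted p = 0.0662) and 0.59 on log2(FPKM + 1). Tgfb2 and Inha, the most abundant of the list at 3.96 and 2.98 FPKM, had log2FC values between -0.39 and 0.24.

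Receptors and coreceptors, 17 tested of 17, had 5 genes with an unadjusted p under 0.05 in OVX vs. Sham (1 higher, 4 lower), 2 in treated vs. OVX (both higher) and 8 in treated vs. Sham (3 higher, 5 lower). These are 29.4%, 11.8% and 47.1% of the list, against 16.4%, 6.45% and 17.6% of all genes. Acvr1c, which encodes the type I receptor ALK7 and is known from fat tissue, had 2.58, 1.97 and 2.85 CPM in Sham rats, 3.38, 4.06 and 4.53 in OVX rats and 4.35, 6.58 and 6.02 in treated rats. Every library of both ovariectomized groups was above every Sham library. Acvr1c rose in treated vs. Sham by a log2FC of 1.20 (SE 0.246, unadjusted p = 0.000813, adjusted p = 0.10, edgeR's quasi-likelihood test), and its value in OVX vs. Sham was 0.69 (unadjusted p = 0.0190). Adipocyte markers were also higher in these groups, with sums of 484 to 785 CPM in treated rats, and their part in the Acvr1c difference was not tested. On the log2(FPKM + 1) scale the value was 0.34, below the fold threshold. Over the 19 alternatives the adjusted p of Acvr1c ran from 0.000540 (DESeq2) to 0.336.

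Eng, which encodes endoglin, a TGF-beta coreceptor of endothelium, had 61.1, 64.6 and 64.1 CPM in Sham rats, 48.7, 48.6 and 52.1 in OVX rats and 43.5, 44.1 and 50.8 in treated rats. All Sham libraries were above all libraries of the other groups. Log2FC was -0.35 in OVX vs. Sham (SE 0.0891, unadjusted p = 0.00345) and -0.46 in treated vs. Sham (SE 0.0892, unadjusted p = 0.000570), both within the fold threshold. Acvrl1, which encodes the endothelial receptor ALK1 and is named here after its values were seen, gave -0.62 and -0.61 with the same Sham libraries. Endothelial markers had summed levels of 293 to 430 CPM in Sham, 254 to 357 in OVX and 260 to 293 in treated rats, and their part in both differences was not tested. Tgfbr2, the type II TGF-beta receptor and the receptor of highest level at 38.0 FPKM, had log2FC values between -0.10 and 0.27 with overlapping groups.

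Of the other secreted antagonists, 12 were tested, and edgeR gave 0 an unadjusted p under 0.05 in each of the 3 comparisons. Their log2FC ran from -0.66 to 0.30 in OVX vs. Sham, from -0.80 to 0.30 in treated vs. OVX and from -0.85 to 0.36 in treated vs. Sham. Nbl1, a DAN family antagonist, and Sost, the osteocyte product sclerostin that inhibits Wnt signals, were the most abundant at 35.6 and 29.9 FPKM. Sost had log2FC values of 0.09, 0.08 and 0.17, each with an SE near 0.28.

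Of the genes of latency and processing, 15 tested of 15, 1 passed the thresholds in OVX vs. Sham (Tll1) and 1 in treated vs. Sham (Ltbp4). The shares of all genes were 3.11% and 3.15%. By edgeR, 3, 0 and 3 of the 15 had an unadjusted p under 0.05 in the 3 comparisons. These are 20%, 0% and 20% of the list, against 16.4%, 6.45% and 17.6% of all genes. Tll1, a protease of the BMP1 family that cleaves the antagonist chordin, had 6.81, 3.78 and 2.28 CPM in Sham rats, 1.72, 1.37 and 1.06 in OVX rats and 3.25, 2.82 and 1.21 in treated rats. Every OVX library was below every Sham library, and Tll1 fell in OVX vs. Sham with a log2FC of -1.63 (SE 0.479, unadjusted p = 0.00733, adjusted p = 0.174, edgeR's quasi-likelihood test). Ltbp4, which anchors latent TGF-beta in the matrix, had 110.1, 84.2 and 49.4 CPM in Sham rats, 59.6, 36.6 and 32.6 in OVX rats and 45.9, 45.0 and 26.6 in treated rats. Ltbp4 fell in treated vs. Sham with a log2FC of -1.05 (SE 0.335, unadjusted p = 0.0115, adjusted p = 0.169), and was -0.76 without Sham replicate 1 (unadjusted p = 0.0522) and -0.84 without treated replicate 3. Both genes were highest in Sham replicate 1, the library with the most muscle marker RNA, and with the muscle score as a covariate the log2FC was -0.98 for Tll1 and -0.50 for Ltbp4. On log2(FPKM + 1) Tll1, a low gene, had a value of -0.18. Thbs1 and Nrros, an activator and a carrier of latent TGF-beta at 117 and 50.4 FPKM, had log2FC values between -0.16 and 0.09.

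SMAD transducers and their regulators, 13 tested of 13, had 4 genes with an unadjusted p under 0.05 in OVX vs. Sham, all higher (Smad1, Smad9, Smurf1 and Tgif1, with log2FC of 0.31, 0.40, 0.27 and 0.38), and 0 passed the fold threshold in the 3 comparisons by edgeR. That is 30.8% of the list, against 16.4% of all genes. Treated vs. Sham also gave 4 of 13 (Smad9, Tgif1 and Skil higher at 0.39, 0.30 and 0.37, Zfyve9 lower at -0.46), against 17.6% of all genes. Of these, Smad1, Smad9, Smurf1, Skil and Zfyve9 are named after their values were seen. Smad1 and Smad9 carry BMP signals, Smurf1 marks SMADs for degradation, Tgif1 and Skil are corepressors and Zfyve9 brings SMADs to the receptor. In treated vs. OVX 0 of the 13 had an unadjusted p under 0.05 by edgeR, with log2FC from -0.20 to 0.33. Smad4, the shared partner SMAD at 29.7 FPKM, had log2FC values of 0.07, 0.04 and 0.10 with SE 0.0929.

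Target genes, 16 tested of 17, had 3 with an unadjusted p under 0.05 in OVX vs. Sham, 1 in treated vs. OVX and 0 in treated vs. Sham by edgeR, and 0 passed the thresholds in the 3 comparisons. The shares at p under 0.05 were 18.8%, 6.25% and 0% of the list, against 16.4%, 6.45% and 17.6% of all genes. Ccn2, a TGF-beta target and the most abundant of the list at 138 FPKM, spread from 116 to 557 CPM within OVX alone, and its log2FC of -0.96 in treated vs. Sham had unadjusted p = 0.0932. Id3, a direct BMP target at 92.4 FPKM, had log2FC values of 0.26, -0.11 and 0.15 with overlapping groups.

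**Figure D5:**
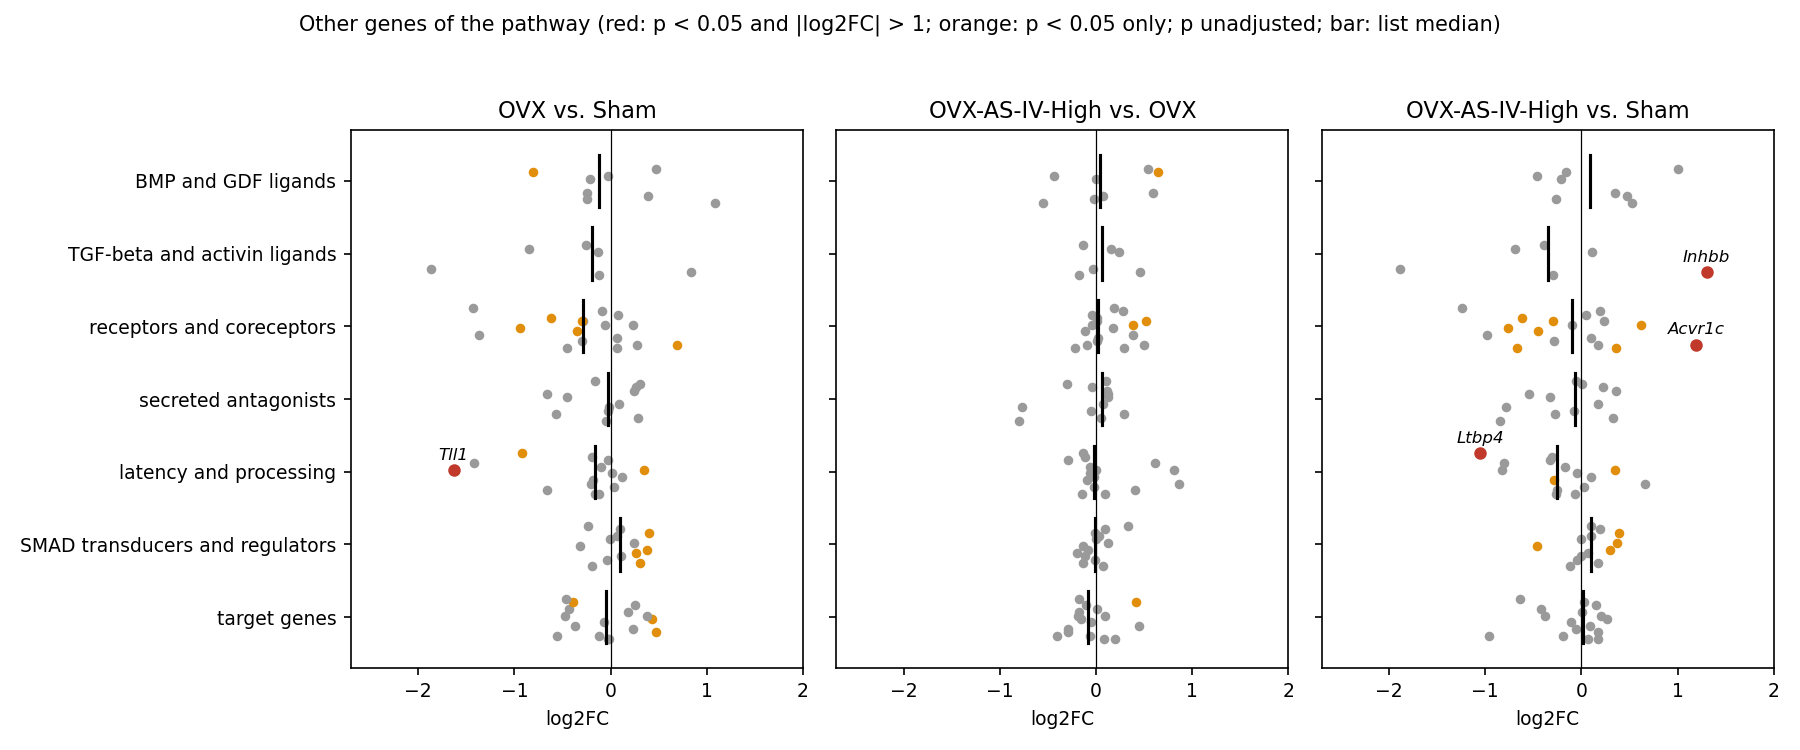
Log2FC of the 87 tested genes of the 7 pathway lists in the 3 comparisons, 1 point per gene and a bar at each list's median. Red and named genes passed both thresholds (1 in OVX vs. Sham, 0 in treated vs. OVX and 3 in treated vs. Sham), and orange genes had an unadjusted p under 0.05 alone.

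Junb, an immediate early gene induced by TGF-beta and BMP and named here after its values were seen, had 82.7, 87.1 and 85.7 CPM in Sham rats, 52.1, 72.3 and 70.3 in OVX rats and 89.9, 81.1 and 88.5 in treated rats. OVX was below both other groups in every library. Log2FC was -0.39 in OVX vs. Sham (unadjusted p = 0.0112) and 0.41 in treated vs. OVX (unadjusted p = 0.00836, adjusted p = 0.652, edgeR's quasi-likelihood test), and the OVX libraries are shared by both values.

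The 3 tested genes whose log2 CPM followed Nog most closely over the 9 libraries were LOC102554815 (Pearson r = 0.948), Ctla4 (0.938) and RGD1565566 (0.929). Ctla4 encodes a T cell inhibitory receptor, RGD1565566 is annotated as similar to ribosomal protein L18a, and LOC102554815 is uncharacterized. All 3 were scarce, with 5 to 35 counts per library for Ctla4, 8 to 54 for LOC102554815 and 2 to 126 for RGD1565566. These are the highest correlations out of all genes tested over 9 shared libraries, given as a description.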

How the data were processed

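mRNA of frozen bone was sequenced by the authors on a HiSeq X-ten from strand-specific, poly(A)-selected libraries, 3 rats per group. They cleaned reads with NGS QC Toolkit, used Tophat/Bowtie2 for alignment and eXpress for quantification. The submitters' processing notes name the build mRatBN7.2. The counts deposited by the authors are whole numbers that were not normalized, and their FPKM values are the same counts rescaled by gene length and library size. How eXpress estimates became whole numbers is not given in the sources used here.

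Counts were tested with edgeR 4.0.16 in R 4.3.3 (quasi-likelihood test, TMM, filterByExpr with a minimum count of 10, all 9 libraries in 1 fit), which kept 16874 of 23026 genes with a common biological coefficient of variation of 0.256. Genes with |log2FC| over 1 and an unadjusted p under 0.05 were DEGs (the study's methods give 0.58, its results 1), and p-values were adjusted by Benjamini-Hochberg over every gene tested. The totals of 34874880 to 37298250 counts limit counting error only. In counts simulated for OVX vs. Sham with 16679 genes, 200 of them changed 3-fold, 184 changed genes (92%) and 198 unchanged genes passed these thresholds. An adjusted p under 0.05 was given to 142 changed and 4 unchanged genes. Smaller changes were not simulated, so the 92% does not apply to the member differences, of which the largest was 2.37-fold.

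The members and lists were chosen with earlier results of these data known. Genes named beside the members were those of each list past the thresholds in any comparison, its 2 genes of highest mean FPKM, and the 3 genes correlated best with a member past the thresholds, which gave 21 genes; others are marked in the text. One gene of the pathway lists is not reported here and was left out of their counts. Replicate numbers were checked by the correlation of deviations from group means. It was 0.31, 0.158 and 0.13 between OVX and OVX-AS-IV-High, and 0.2, -0.161 and 0.253 between Sham and OVX. Between OVX-AS-IV-High and Sham it was 0.314, -0.158 and 0.435. The sample labels name no pairs, these values do not show that rats were paired, and the main fit had no pairing. Alternatives were DESeq2 1.42.0, RLE size factors, library totals, TMM without muscle and erythroid markers, no filter, the 2 groups alone, a replicate block, limma 3.58.1 on log2(FPKM + 1) and log2(FPKM + 0.1), a log2FC threshold of 0.58 and each library left out. The muscle score as a covariate and the count of members at p under 0.05 alone were added after seeing the data. Plots were drawn with matplotlib 3.10.9.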

Additional observations from a re-analysis of the deposited data

How the results depend on the processing

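With 3 libraries a group and a low-count gene such as Nog, single libraries decided calls. Members past the thresholds numbered 1 in OVX vs. Sham and 1 in treated vs. OVX at a log2FC threshold of 0.58, and 0 in treated vs. Sham on log2(FPKM + 1). With 1 library left out they ranged from 0 to 2 in OVX vs. Sham, stayed at 0 in treated vs. OVX and ranged from 0 to 1 in treated vs. Sham. Members with an unadjusted p under 0.05 ranged from 1 to 3, 0 to 1 and 1 to 3 in the same order, and numbered 2 with library totals in treated vs. OVX. The replicate block treats libraries of the same replicate number as matched, although the sample labels name no pairs. It changed no member call in treated vs. OVX (0 past the thresholds, 1 at p under 0.05). In the comparisons with Sham, the block gave 4 members at p under 0.05 in treated vs. Sham, and 4 and 7 pathway genes past the thresholds in OVX vs. Sham and treated vs. Sham.

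Pathway genes past the thresholds in OVX vs. Sham numbered 3 with DESeq2, 3 with the 2 groups alone, 0 on log2(FPKM + 1), 0 with the muscle score, 6 at 0.58 and 1 to 8 with a library left out. In treated vs. OVX they numbered 1 at 0.58 and 0 to 2 with a library left out. In treated vs. Sham they numbered 0 on log2(FPKM + 1), 7 at 0.58 and 1 to 7 with a library left out. All genes past the thresholds in OVX vs. Sham were 525, and 791 without the filter, 78 on log2(FPKM + 1), 340 on log2(FPKM + 0.1), 1174 at 0.58 and 387 to 1064 with a library left out. In treated vs. OVX they were 140, and 274, 14 and 369 without the filter, on log2(FPKM + 1) and at 0.58, and 141 to 219 with a library left out. For treated vs. Sham they were 531, and 84 on log2(FPKM + 1), 1167 at 0.58 and 409 to 940 with a library left out. Counts over 1.5 times the main ones came without Sham replicate 3 in OVX vs. Sham (1064) and treated vs. Sham (862), without treated replicate 1 in treated vs. Sham (940) and treated vs. OVX (219), and without OVX replicate 3 (215) or treated replicate 3 (212) in the latter.

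Differences near 0 changed sign. In treated vs. Sham, Bmp2 (0.01) was -0.0066 on log2(FPKM + 1), -0.010 on log2(FPKM + 0.1), -0.031 with the muscle score and -0.078 to 0.17 with a library left out. In treated vs. OVX, Smad6 was -0.011 with library totals and Tgfb3 -0.016 and -0.024 on the limma scales. With a library left out that comparison gave -0.22 to 0.13 for Bmp4, -0.072 to 0.38 for Bmp7, -0.13 to 0.18 for Smad6, -0.15 to 0.070 for Smad7 and -0.32 to 0.28 for Tgfb3. By CPM in place of FPKM the genes Smad7, Inhba, Grem1, Smad6 and Bmp4 took places 2, 3, 4, 6 and 7 of 10, because CPM is not divided by length, and the ligand to antagonist ratio in Sham was 1.23. Apart from the values given here and beside the results, the cause of these shifts was not tested. Of the differences of single genes, 604 values under alternatives kept their direction and side of the threshold, 20 changed sign, 19 lost the call and 3 gained it. Most of these differences were not called in the main fit and could not lose a call. All 19 lost calls fell on Nog, Inhbb, Acvr1c and Ltbp4 in treated vs. Sham and Tll1 in OVX vs. Sham, each with 19 alternatives. The 604 therefore do not measure how stable the calls were.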

Other observations

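Further coreceptors of the pathway were named after their values were seen. Rgma, a repulsive guidance molecule that binds BMPs, had 11.2, 6.75 and 7.27 CPM in Sham rats, 4.31, 4.48 and 4.39 in OVX rats and 4.27, 6.20 and 4.40 in treated rats. Every library of both ovariectomized groups was below every Sham library, with a log2FC of -0.94 in OVX vs. Sham (unadjusted p = 0.00369, adjusted p = 0.153, edgeR's quasi-likelihood test) and -0.76 in treated vs. Sham. Hjv, the hemojuvelin of liver and muscle, had 91.1, 67.4 and 11.4 CPM in Sham rats, 33.3, 14.9 and 14.7 in OVX rats and 46.1, 19.4 and 6.10 in treated rats, and so followed the order of the muscle marker sums within each group.

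Tgfbr1, the type I TGF-beta receptor, had 72.5, 62.2 and 80.6 CPM in Sham rats, 78.2, 79.4 and 96.4 in OVX rats and 121.9, 116.1 and 92.3 in treated rats. The treated libraries were all above Sham (log2FC 0.62, unadjusted p = 0.00176, adjusted p = 0.107, edgeR's quasi-likelihood test) and overlapped with OVX only by replicate 3 of both groups (0.38, unadjusted p = 0.0249). Acvr2a, a type II activin receptor, had a log2FC of 0.52 in treated vs. OVX (unadjusted p = 0.0203), with overlapping groups. Both were named after their values were seen.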
